A study of Mus musculus with 8 samples.

Results

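The genes described here are the nuclear genes for subunits of the mitochondrial respiratory chain and of ATP synthase, measured by RNA sequencing in whole intestine of C57BL/6 mice. They were chosen by symbol alone: Nduf followed by a, b, c, s or v and a number, Sdha to Sdhd, Uqcr and Cyc1, Cox4 to Cox8, and Atp5. Protein-coding rows with a mean of at least 0.5 FPKM, a read count scaled by gene length and library size, over the 8 libraries were kept. Of 85 protein-coding rows that matched, 83 passed, among 16865 genes that passed the same filter and 49585 identifiers in all. Cox7b2 was listed at 0 in every library and Cox8c had a mean of 0.0133 FPKM, and both fell below the filter. By symbol, the 83 genes comprised 37 for complex I, 4 for complex II, 9 for complex III, 16 for complex IV and 17 for ATP synthase.

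The groups were 4 mice labelled as recipients of Klebsiella and 4 labelled as recipients of Lactobacillus, both genera of gut bacteria. Each library is named here by group and by the mouse number of its label, such as Klebsiella 2. The labels do not state the dose, route or duration, the age of the mice or the stretch of gut taken, and no group without bacteria was analysed here. Since the labels number the libraries as separate mice, p-values set the difference between groups against the spread between these mice. The comparison answers how far transcripts of each complex differed between the recipients of the 2 genera.

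Complex I takes electrons from NADH, complex II from succinate, complex III passes them from ubiquinol to cytochrome c, and complex IV hands them to oxygen. Complexes I, III and IV pump protons, and ATP synthase uses the return flow of those protons to make ATP. Most subunits are encoded in the nucleus and imported, and a small core is encoded in mitochondrial DNA; in the colon, epithelial cells are known to feed the chain largely by oxidising butyrate made by bacteria.

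Between 40455910 and 55447220 filtered reads per library stood behind these values, and between 15375480 and 20953595 reads in genes were recovered from the FPKM values. Epithelial markers (Epcam, Cdh1, Krt8, Krt18, Krt19 and Vil1) were all present and summed to between 5329 and 8145 FPKM per library. All 7 markers of absorptive colonocytes passed the filter, but only 2 of 6 markers of small-intestinal absorptive cells did. No fit across genes called any gene at an adjusted p under 0.05 in the comparison of the groups (limma, smallest adjusted p 0.462 over 16865 genes). In whole tissue, fewer cells of a type and less RNA per cell cannot be told apart.

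Subunit transcripts were abundant. The median over genes of the mean level was 149 FPKM for complex I, 197 for complex II, 394 for complex III, 458 for complex IV and 365 for ATP synthase, and 67 of the 83 genes had a mean of at least 100 FPKM. Atp5b, the catalytic beta subunit of ATP synthase, was the highest at 2262 FPKM. Cox6a1, the common form of a small complex IV subunit, followed at 1972 FPKM. In complex I the highest was Ndufa1, a small membrane subunit, at 496 FPKM, in complex II Sdha, the flavoprotein that oxidises succinate, at 737 FPKM, and in complex III Uqcr10 at 843 FPKM. At the low end stood Sdhc, a membrane anchor of complex II, at 132 FPKM, Uqcrfs1, the Rieske iron-sulfur protein of complex III, at 210 FPKM, and Atp5s, a factor that bears the ATP synthase prefix without being a core subunit, at 9.57 FPKM. By symbol, the lowest genes of complexes I and IV were the restricted isoforms Ndufa4l2 at 2.09 FPKM and Cox6a2 at 0.536 FPKM. Ndufa4l2 is a relative of Ndufa4, which is known as a subunit of complex IV. The next lowest gene with a complex I symbol was Ndufb2 at 6.11 FPKM, on 64 to 192 reads per library. It overlaps 3 other annotated genes, so its level is uncertain.

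**Figure D1:**
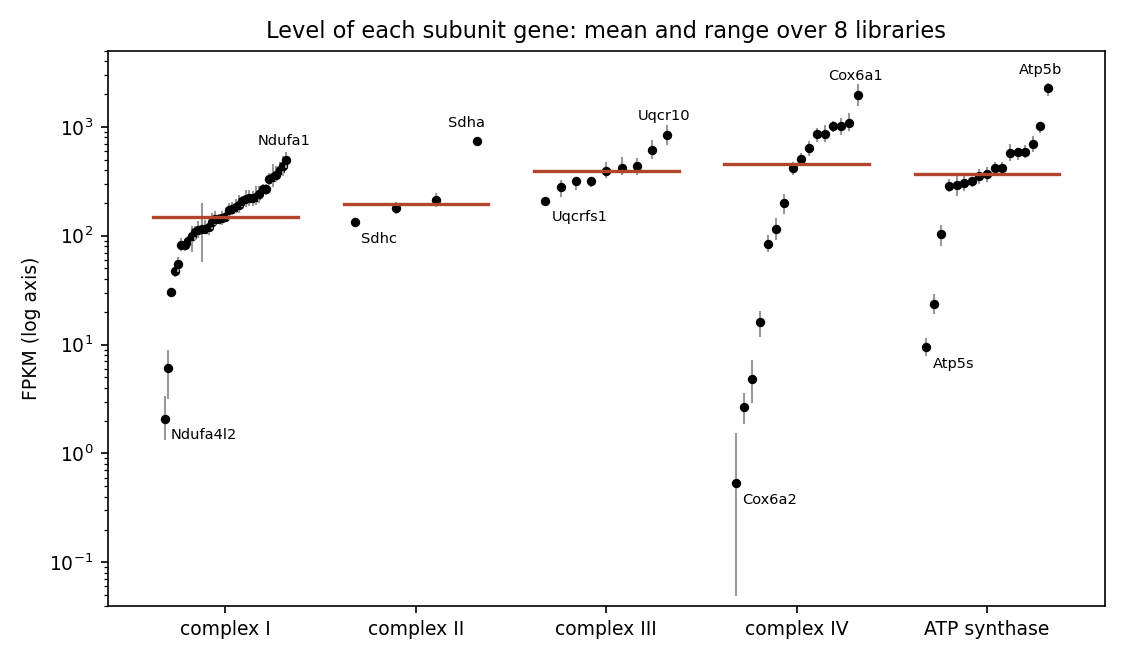
Mean FPKM of each of the 83 genes (points, log axis) with the lowest and highest library (grey lines), by complex and in order of level; red lines mark the median of each complex. Medians rise from 149 FPKM in complex I to 458 in complex IV, and the line for Cox6a2, listed at 0 in Klebsiella 3, is drawn down to 0.05.

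Levels varied little between mice. The SD over the 8 libraries on the log2(FPKM + 0.5) scale had a median of 0.136 for the 83 genes, against 0.244 for all genes tested and 0.185 for the 1023 genes at or above the lower quartile of the subunit genes' level, a set chosen after the data were seen. That set, called genes of like level below, has no upper bound and holds the subunit genes at that level too. Within complexes II to IV and ATP synthase the steadiest were Sdha (SD 0.0564), Uqcrfs1 (0.0603), Cox7a2 (0.120) and Atp5f1, which forms part of the peripheral stalk of ATP synthase (0.0724). Sdha, for example, had 700, 715, 760 and 755 FPKM in Klebsiella 1 to 4 and 767, 747, 755 and 696 FPKM in Lactobacillus 1 to 4. The groups overlapped throughout that range, with the lowest value in a Lactobacillus library.

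By median, subunit transcripts lay slightly lower in the Klebsiella recipients in all 5 complexes, in complex II by about as much as genes of like level. Of the 83 genes, 0 passed an adjusted p under 0.05 (limma, smallest adjusted p 0.774), where the share of all genes was 0%. The log2 difference, Klebsiella minus Lactobacillus, was below 0 for 74 genes and above 0 for 9, with a median of -0.13, which is 1.09-fold. Over all 16865 genes tested the median was -0.02 and 53.6% were below 0; over the 1023 genes of like level these were -0.06 and 61.4%. At an unadjusted p under 0.05 stood 7 genes, or 8.43%, all lower in Klebsiella, where 6.07% of all genes did and 8.31% of the 1023 genes of like level, a share close to that of the subunit genes. The 4 Klebsiella values all lay below the 4 Lactobacillus values for 11 genes, or 13.3%. Among all genes 2.99% had groups that did not overlap in either direction and 1.8% had Klebsiella lower. Among the 1023 genes of like level 5.38% did not overlap and 4.20% had Klebsiella lower. The median SE of a single difference was 0.10. The count of 11 was 6 with each library set to a constant total, 5 with median-of-ratios factors and 7 with a constant total over nuclear protein-coding genes (7.23%, 6.02% and 8.43% of the genes, against 2.88%, 2.88% and 2.93% of all genes), and only Ndufb4, Ndufv3 and Uqcr10 were apart under all of these scalings. Without Lactobacillus 4, 23 genes stood at an unadjusted p under 0.05 (28.0% of the 82 then tested, against 4.54% of all genes) and 31 did not overlap (37.3% against 5.78%). Without Klebsiella 3 these counts were 12 (14.5% against 10.8%) and 22 (26.5% against 9.72%), and without Lactobacillus 1 the groups of 19 genes did not overlap (22.9% against 11.3%). At an unadjusted p under 0.05, 7 genes stood without Lactobacillus 1 (8.43%, below the 11.9% of all genes). Without Klebsiella 2 or without Lactobacillus 2, 4 genes stood at an unadjusted p under 0.05 (4.82% in both, against 4.30% and 4.64%).

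**Figure D2:**
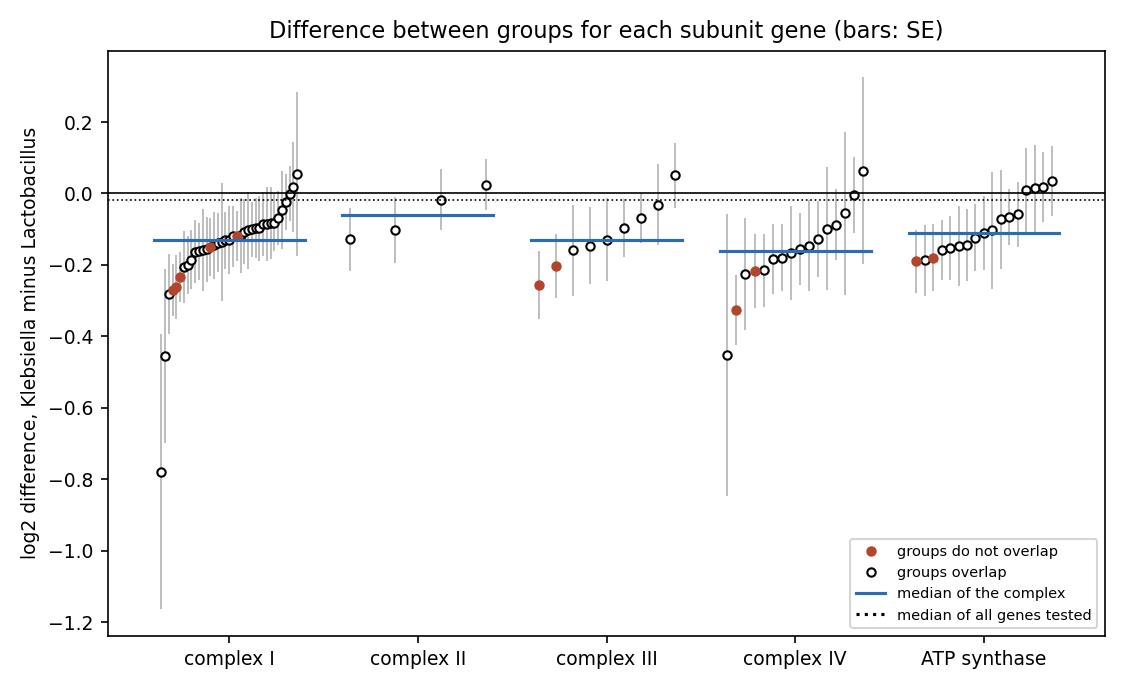
Log2 difference, Klebsiella minus Lactobacillus, of each subunit gene with its SE from limma, in order within each complex; red points are the 11 genes whose groups do not overlap and blue lines the medians. Points lie mostly below 0, with medians between -0.16 (complex IV) and -0.06 (complex II) and a median of -0.02 for all genes tested (dotted).

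Complex I had 35 of 37 genes below 0 and a median of -0.13, and 0 passed the adjusted test. The median was -0.16 over 10 genes of the NADH-oxidising module, -0.09 over 6 genes of the quinone module, -0.14 over 9 genes of the membrane arm near the hinge and -0.13 over 10 genes of its far end. Ndufa4 and Ndufa4l2, the 2 genes above 0, belong to none of these modules. With both counted with complex IV instead, the median was -0.13 for complex I and -0.15 for complex IV. Differences between these medians were not tested.

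Ndufv3, an accessory subunit of the NADH-oxidising module, had the smallest p of the 83 genes. Its levels were 117, 120, 128 and 123 FPKM in Klebsiella 1 to 4 and 137, 158, 147 and 147 FPKM in Lactobacillus 1 to 4. Every Klebsiella value was below every Lactobacillus value, with means of 122 ± 4.70 and 147 ± 8.83 FPKM (SD, n = 4 each). The log2 difference was -0.27 ± 0.07 (SE), with p 0.00548 and adjusted p 0.774 in limma.

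Ndufb4, a subunit at the far end of the membrane arm, stood at 142, 129, 134 and 131 FPKM in the Klebsiella libraries and at 157, 166, 151 and 157 FPKM in the Lactobacillus libraries. The groups again did not overlap, and the lowest Lactobacillus library was number 3. Its log2 difference was -0.23 ± 0.07 (limma p 0.0089, adjusted p 0.774). Of the 50-base words in its transcripts 18.3% also occur in other genes, chiefly the processed pseudogene Ndufb4c, so its level is uncertain to that extent.

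Ndufa1 ran from 425 to 489 FPKM in the Klebsiella libraries and from 508 to 578 FPKM in the Lactobacillus libraries, a log2 difference of -0.26 ± 0.09 (limma p 0.0162, adjusted p 0.774). Ndufa6 and Ndufa13 were below the same unadjusted threshold with overlapping groups. Ndufa6, of the NADH-oxidising module, was at 285 to 350 and 330 to 443 FPKM, the highest in Lactobacillus 4, and Ndufa13, also studied as the cell-death gene GRIM-19, was at 103 to 120 and 120 to 135 FPKM. Ndufs3, a core subunit of the quinone module, and Ndufs4, a subunit that stabilises the NADH-oxidising module, did not overlap although their differences were small: Ndufs3 was at 137 to 148 and 149 to 162 FPKM (log2 difference -0.12) and Ndufs4 at 47.4 to 53.5 and 53.6 to 62.8 FPKM (-0.15). The gap between the groups for Ndufs4 was thus that between 53.5 and 53.6 FPKM. Of the words of Ndufa13 and Ndufs3, 28.5% and 17.9% also occur in other genes.

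In complex II the median difference was -0.06 (-0.03 without Klebsiella 2), with 3 of 4 genes below 0 and no group apart. The median of the 1023 genes of like level was also -0.06. Sdhb, the iron-sulfur subunit, varied most of the 4 (SD 0.123), at 161 to 196 FPKM in Klebsiella and 175 to 202 FPKM in Lactobacillus libraries. For Sdhc the log2 difference was 0.02 ± 0.07, and for Sdha it was -0.02 ± 0.08.

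Complex III had 8 of 9 genes below 0, a median of -0.13 (-0.07 without Lactobacillus 1) and 2 genes whose groups did not overlap. Uqcr10, a small accessory subunit, was at 781, 702, 779 and 809 FPKM in the Klebsiella libraries and at 1009, 913, 880 and 867 FPKM in the Lactobacillus libraries. Lactobacillus 1 was highest and Klebsiella 2 lowest, and the log2 difference was -0.26 ± 0.10 (limma p 0.0264, adjusted p 0.774). Uqcrb, a ubiquinone-binding subunit, was at 344 to 395 and 398 to 467 FPKM, with 25.5% of its words shared with other genes. Uqcrh, the hinge protein at the docking site of cytochrome c, varied most (SD 0.185), with its highest values in Lactobacillus 4 at 734 FPKM and Lactobacillus 2 at 708 FPKM.

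Complex IV had 15 of 16 genes below 0 and the lowest median of the complexes, -0.16. Cox7a1 and Cox7c were the genes whose groups did not overlap. Cox7a1, the form of subunit VIIa known from heart and skeletal muscle and from brown fat, was at 94.2, 110, 107 and 101 FPKM in the Klebsiella libraries and at 132, 111, 133 and 143 FPKM in the Lactobacillus libraries. Klebsiella 2 and Lactobacillus 2 nearly met, and Lactobacillus 4 was highest. The log2 difference was -0.33 ± 0.10 (limma p 0.00843, adjusted p 0.774). Cox7c, a small membrane subunit, was at 852 to 1013 and 1035 to 1185 FPKM (log2 difference -0.22, 22.1% of words shared with other genes).

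ATP synthase had 13 of 17 genes below 0 and a median of -0.11 (-0.07 without Lactobacillus 2). Atp5h and Atp5j, both of the peripheral stalk, were the genes with groups apart. Atp5h was at 501 to 551 and 557 to 688 FPKM, with 19.9% of its words shared with other genes. Atp5j was at 525 to 559 and 565 to 669 FPKM. Atp5k, a small membrane subunit known for its part in dimers of the enzyme, varied most (SD 0.245), between 236 FPKM in Klebsiella 1 and 363 FPKM in Lactobacillus 2. The catalytic Atp5b ran from 1961 to 2472 FPKM with a log2 difference of 0.01 ± 0.12, and Atp5f1 from 287 to 335 FPKM with -0.07 ± 0.08.

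The proton-carrying ring of ATP synthase is built from the c subunit, whose mature protein is the same whichever of 3 genes encodes it. Atp5g3 gave between 56.8% and 62.5% of their summed FPKM, Atp5g2 between 27.1% and 33.2% and Atp5g1 between 9.31% and 12.2%. By FPKM the order was the same in every library and the ranges did not meet. In reads, which are not scaled by gene length, Atp5g1 had 3834 to 5975 per library and Atp5g2 3036 to 4589. The order of Atp5g1 and Atp5g2 thus depends on the gene length used for FPKM. Log2 differences between groups were 0.04 ± 0.10 for Atp5g3, -0.15 ± 0.09 for Atp5g2 and 0.01 ± 0.12 for Atp5g1. Of the words of Atp5g2, 38.3% occur in other genes.

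Libraries of a group also differed from each other. Lactobacillus 2 had the highest value for 31 of the 83 genes and Klebsiella 2 the lowest for 31. The median deviation from each gene's own mean was 0.14 in Lactobacillus 2, 0.07 in Lactobacillus 3 and 0.06 in Lactobacillus 1 on the log2 scale. It was -0.14 in Klebsiella 2, -0.07 in Klebsiella 1, -0.04 in Klebsiella 4 and 0.00 in Klebsiella 3. Lactobacillus 4 lay at -0.02, within the range of the Klebsiella libraries, and it was mixed: it had the highest value for 17 genes and the lowest for 24. The SD of the deviations, leaving out Ndufa12, was 0.219 in Lactobacillus 4 and 0.101 to 0.154 in the other libraries. By complex, Lactobacillus 4 stood at 0.08 in complex IV and at -0.06 in complex I. Klebsiella 2 was the lowest library in all 5 complexes, and Lactobacillus 2 the highest, by these medians. Together the 83 genes made up between 4.14% (Klebsiella 1) and 4.86% (Lactobacillus 2) of the FPKM of nuclear protein-coding genes.

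**Figure D3:**
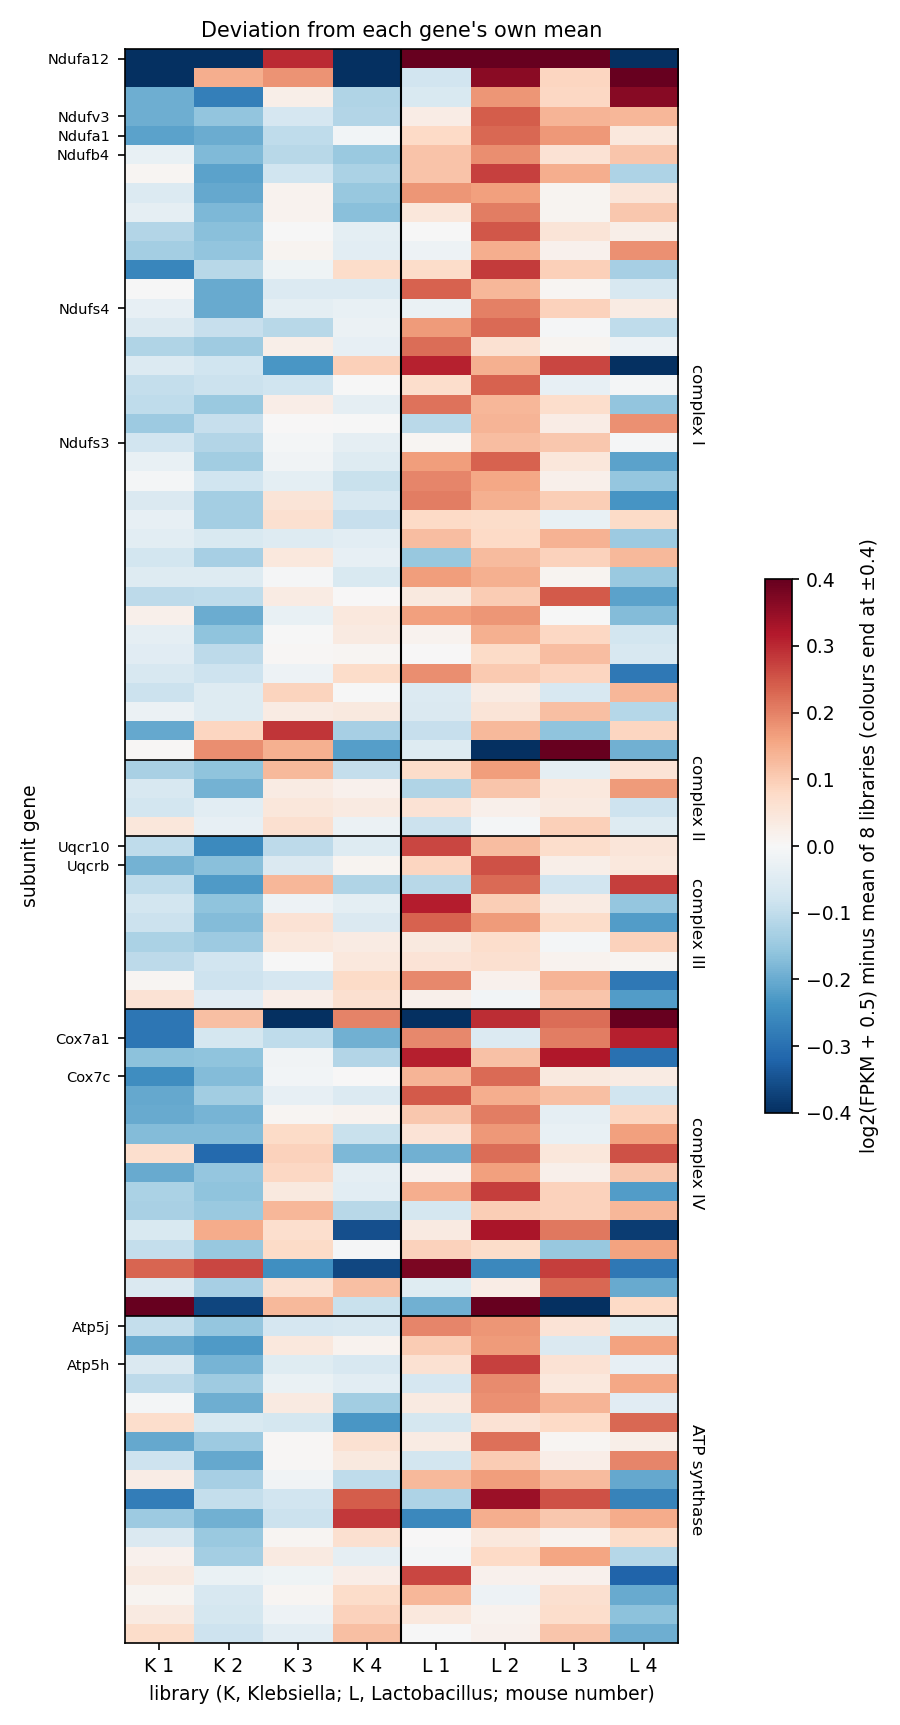
Deviation of each of the 83 genes (rows, by complex and in order of the difference between groups) from its own mean over the 8 libraries (columns), on the log2(FPKM + 0.5) scale; colours end at ±0.4, and the 11 genes whose groups do not overlap and Ndufa12 are labelled. Klebsiella 1 and 2 are mostly blue (low), Lactobacillus 1 to 3 mostly red (high), and Lactobacillus 4 holds both, with 17 genes at their highest and 24 at their lowest value.

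Markers of other cells moved with the groups in part. Summed white fat markers (Adipoq, Cfd, Plin1, Car3, Lep and Retn) were at 1.90 to 20.1 FPKM in Klebsiella and 25.1 to 241 FPKM in Lactobacillus libraries, with 241 FPKM in Lactobacillus 4; 5 of 6 passed the filter and all 5 were lower in Klebsiella. Smooth muscle markers summed to 916 to 3537 FPKM in Klebsiella and 1354 to 2288 FPKM in Lactobacillus libraries, and all 6 had a mean difference above 0. Brown fat markers summed to at most 0.934 FPKM, with Elovl3 at 0 in every library. Absorptive colonocyte markers summed to 1302 to 5859 and 1864 to 5201 FPKM, with all 7 below 0, and pancreatic acinar markers to 185 to 1118 and 279 to 659 FPKM, with all 5 below 0. Markers of small-intestinal absorptive cells summed to 85.0 to 329 FPKM in Klebsiella and 29.3 to 151 FPKM in Lactobacillus libraries, with both tested genes above 0. Leukocyte markers summed to 29.3 to 55.0 and 25.4 to 54.6 FPKM, with 3 of 4 above 0. Epithelial markers summed to 5754 to 8145 and 5329 to 7186 FPKM, with 5 of 6 above 0 and a median difference of 0.19. Goblet cell markers summed to 10890 to 14449 and 7071 to 13347 FPKM, with 3 of 5 above 0 and a median of 0.49, and pericyte markers to 68.1 to 159 and 72.7 to 98.4 FPKM, with all 5 above 0. Skeletal muscle markers summed to 11.1 to 19.8 and 9.04 to 13.4 FPKM with Myh4 at 0 in every library. The 4 of 8 that passed the filter were above 0. The part of any of these cells in the lower subunit transcripts, Cox7a1 included, was not tested.

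Ndufa12, an accessory subunit that completes the NADH-oxidising module, was the exception to the narrow spread. Its levels were 72.7, 61.8, 126 and 64.9 FPKM in Klebsiella 1 to 4 and 165, 170, 195 and 58.7 FPKM in Lactobacillus 1 to 4. Lactobacillus 1 to 3 were above all other libraries, Lactobacillus 4 was the lowest of all, and Klebsiella 3 lay between. The log2 difference was -0.78 ± 0.38 (limma p 0.0737, adjusted p 0.774) and the SD over libraries 0.735. Without Lactobacillus 4 the difference was -1.17 ± 0.24 (limma adjusted p 0.924). The highest library was 3.32-fold the lowest, while among the other 76 subunit genes with a mean of at least 10 FPKM the largest such ratio was 1.69, for Ndufb6. Of 2704 genes with a mean of at least 50 FPKM, 99 had an SD as large. Ndufb6 and the genes beside Ndufa12 were chosen after their values were seen. Of the words of Ndufb6, 31.6% occur in other genes.

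Ndufa12 lies on chromosome 10 (chr10:94198720-94221443 on GRCm38, plus strand). Its nearest tested neighbours Nr2c1 and Tmcc3 were at 3.17 to 5.72 and at 36.1 to 63.9 FPKM, highest in Lactobacillus 4 and in Klebsiella 3, and so did not share the order of the libraries. A processed pseudogene, Gm15920, lies on chromosome 5 (chr5:130188395-130188796) and matches 397 of 399 coding bases of Ndufa12 set against it without gaps, or 99.5%. The following 60 bases of both, from the reference transcripts of GENCODE release M21, are shown because they hold 1 of the differing bases, in capitals, and because a short read from an identical stretch, of which the longest is 278 bases, fits both genes.
Ndufa12 (chr10:94199950-94200009, plus strand): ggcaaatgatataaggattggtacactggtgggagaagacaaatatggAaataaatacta
Gm15920 (chr5:130188445-130188504, plus strand): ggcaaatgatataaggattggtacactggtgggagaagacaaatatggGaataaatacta

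Gm15920 ran partly against Ndufa12, at 153, 142, 115 and 176 FPKM in Klebsiella 1 to 4 and 138, 119, 81.8 and 145 FPKM in Lactobacillus 1 to 4. In recovered reads, Ndufa12 had 35.1% to 61.7% of the reads of both genes in the Klebsiella libraries, 63.8% to 77.8% in Lactobacillus 1 to 3 and 37.3% in Lactobacillus 4. The sum of both was 95.7 to 124 RPM (reads scaled to the recovered reads in genes) in the Klebsiella libraries, 152 to 156 in Lactobacillus 1 to 3 and 95.8 in Lactobacillus 4. Lactobacillus 1 to 3 were thus above the other 5 libraries in the sum too. No label or header says how reads that fit both places were counted. If they were left out, the sum lacks them too. The part of that treatment in the Ndufa12 values and in the sum was not tested.

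**Figure D4:**
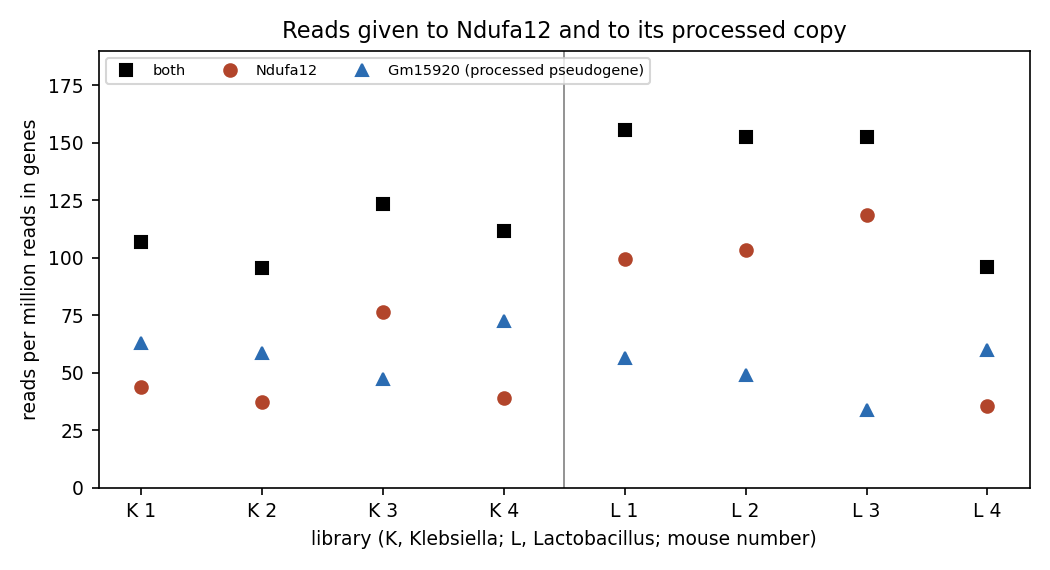
RPM, scaled to the recovered reads in genes, for Ndufa12 (circles), its processed pseudogene Gm15920 (triangles) and both together (squares) in each library. The sum lies at 152 to 156 in Lactobacillus 1 to 3 and at 95.7 to 124 in the other 5 libraries.

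Tissue-restricted isoforms were minor in this tissue except in 1 position. Cox7a1 stood at 20.1% to 29.5% of its common partner Cox7a2, which had a mean of 502 FPKM. Elsewhere the restricted form was at most 2.30% of the common one. Cox6b2, known from testis, was at 1.31% to 2.30% of Cox6b1, and Ndufa4l2, a hypoxia-inducible relative of Ndufa4, was at 0.550% to 1.61% of it. Ndufa4 bears a complex I symbol but is known as a subunit of complex IV. Cox8b, known from muscle and brown fat, was at 0.274% to 0.703% of Cox8a, and Cox4i2, an oxygen-responsive form known from lung, was at 0.158% to 0.330% of Cox4i1. Cox6a2, the striated muscle form, was at 0 to 0.0952% of Cox6a1, on 0 to 18 reads per library.

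For the ratio of Cox7a1 to Cox7a2 the percentages were 20.1, 24.3, 20.4 and 20.2 in Klebsiella 1 to 4 and 24.7, 21.0, 29.5 and 25.6 in Lactobacillus 1 to 4. Klebsiella 2 overlapped the Lactobacillus range and Lactobacillus 2 the Klebsiella range. The log2 ratio differed by -0.24 between the groups (two-sided exact permutation test over 70 assignments, p 0.0571, adjusted p 0.343 over 6 pairs). For the other 5 pairs the differences lay between -0.23 and 0.19, each with an adjusted p of 0.914 in the same exact test. With 4 libraries against 4 the smallest p that this test allows is 0.0286, so a single pair could not have passed after adjustment over 6.

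**Figure D5:**
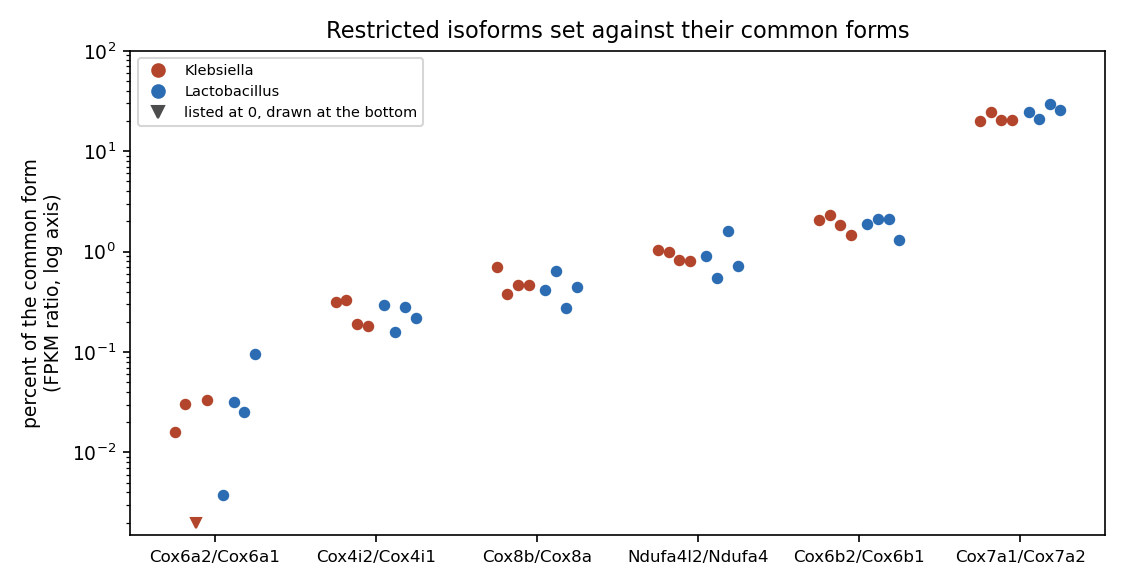
FPKM of the restricted isoform as a percent of the common form in each library (log axis), by pair and group; the triangle marks Cox6a2 listed at 0 in Klebsiella 3. Cox7a1 lies at 20.1% to 29.5% of Cox7a2, and all other pairs lie at or below 2.30%.

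Other genes of energy metabolism and translation were set beside the subunits, and no member of any list passed an adjusted p under 0.05 in limma. The sign of each list's median was the same under all 3 other scalings. Among 43 tested assembly factors the median difference was -0.06, with 30 below 0 and 3 at an unadjusted p under 0.05 (6.98%, against 6.07% of all genes). The smallest p there belonged to Coa6, a copper-delivery factor of complex IV, at 35.6 to 43.8 FPKM in Klebsiella and 42.9 to 48.8 FPKM in Lactobacillus libraries (log2 difference -0.26). Cox20, a chaperone of a mitochondrially encoded complex IV subunit, followed at 4.04 to 6.20 and 6.24 to 9.95 FPKM (-0.47), with groups apart. Mitochondrial ribosomal proteins had a median of -0.08 over 77 genes, with 62 below 0 and 9 at an unadjusted p under 0.05 (11.7%, against 6.07% of all genes). Of these, Mrps33 was at 28.9 to 32.9 and 36.2 to 40.6 FPKM (log2 difference -0.26), while Mrps18b went the other way, at 13.8 to 14.5 and 9.76 to 11.7 FPKM (0.39).

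The 13 subunits encoded in mitochondrial DNA had a median of 0.03, with 8 above 0 and 5 below. Their summed FPKM was 0.705 times that of the 83 nuclear genes in Lactobacillus 1 and 1.28 times in Lactobacillus 4, and 0.947 to 1.24 times in the other libraries. The 2 of smallest p were mt-Nd3, at 13.5 to 36.8 and 14.9 to 24.1 FPKM, and mt-Nd4l, at 9.29 to 17.7 and 6.52 to 13.6 FPKM, both complex I subunits with overlapping groups. Regulators of mitochondrial gene expression had a median of 0.05 over 18 genes, with 11 above 0 and 0 at an unadjusted p under 0.05. Gabpb1, a subunit of a transcription factor of respiratory genes, was at 11.6 to 14.5 and 10.9 to 11.8 FPKM, and Pprc1, a PGC-1-related coactivator, at 19.3 to 43.3 and 11.8 to 36.9 FPKM.

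Carriers and electron inputs (17 tested genes), the tricarboxylic acid cycle (16) and glycolysis (15) had medians of -0.05, -0.04 and -0.08, with 0 genes at an unadjusted p under 0.05. Slc25a5, the ADP/ATP carrier that exports the ATP made, was at 972 to 1055 FPKM in Klebsiella and 1102 to 1283 FPKM in Lactobacillus libraries, which did not overlap (log2 difference -0.18, limma adjusted p 0.774). Vdac3, a pore of the outer membrane, was at 85.0 to 115 and 92.7 to 123 FPKM. Citrate synthase, Cs, was at 139 to 153 and 147 to 177 FPKM, and Ogdh, of the 2-oxoglutarate dehydrogenase complex, at 114 to 133 and 105 to 129 FPKM. Of glycolysis, Ldha was at 843 to 915 and 905 to 1044 FPKM, and Tpi1 at 537 to 609 and 600 to 688 FPKM. Cytosolic ribosomal proteins, a list added after the data were seen, had a median of -0.15 over 96 genes, with 84 below 0 and 0 at an unadjusted p under 0.05. Rpl31 was at 1443 to 2014 and 1866 to 2327 FPKM, and Rps25 at 890 to 1187 and 1022 to 1340 FPKM.

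Promoters of respiratory genes are known for sites of the factors NRF1, GABP, YY1 and ERR. RefSeq windows from 250 bases before to 50 after a start (GRCm38.p6) were matched for 65 of the 83 genes, 70 windows in all, and searched on both strands, with overlapping matches counted once per window. The NRF1 core GCGCANGCG, whose letters, like those below, were chosen with the data in hand, occurred in 21 of 70 windows (30.0%) and in 6.25% of all 32851 windows. The YY1 core AANATGGCG occurred in 10 (14.3% against 2.38% of all), the ETS core CCGGAAGT bound by GABP in 5 (7.14% against 3.89%) and the ERR core TCAAGGTCA in 2 (2.86% against 0.423%). Median GC content was 57.3% in the subunit windows and 52.7% in all windows, and its part in these shares was not tested. By gene, the NRF1 core was found for 7 of 13 of ATP synthase, 8 of 32 of complex I, 2 of 3 of complex II, 2 of 5 of complex III and 1 of 12 of complex IV. The YY1 core was found for 7 genes of complex I and 3 of ATP synthase.

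The 120 bases before the start are shown for 6 genes named above that hold a match there, at least 1 from each complex, and for Cox7a1 and Cox7a2, which hold none there and form the pair with the highest share of the restricted form; capitals mark the matches, and each sequence reads toward the gene. Ndufb4, Sdha, Cox6a1 and Atp5k hold NRF1 cores, and on the opposite strand Uqcrh holds an ETS core and Atp5g3 an ERR core. A match describes the letters only.
Ndufb4 (chr16:37654369-37654488, minus strand): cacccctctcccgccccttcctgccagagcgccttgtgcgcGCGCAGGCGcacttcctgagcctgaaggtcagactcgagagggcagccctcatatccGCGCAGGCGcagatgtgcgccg
Sdha (chr13:74350241-74350360, minus strand): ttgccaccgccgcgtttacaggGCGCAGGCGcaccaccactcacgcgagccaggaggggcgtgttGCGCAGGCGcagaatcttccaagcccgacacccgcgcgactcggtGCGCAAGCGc
Uqcrh (chr4:116075071-116075190, minus strand): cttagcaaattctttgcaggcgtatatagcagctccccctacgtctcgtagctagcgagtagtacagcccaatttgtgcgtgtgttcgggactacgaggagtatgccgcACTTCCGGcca
Cox6a1 (chr5:115348959-115349078, minus strand): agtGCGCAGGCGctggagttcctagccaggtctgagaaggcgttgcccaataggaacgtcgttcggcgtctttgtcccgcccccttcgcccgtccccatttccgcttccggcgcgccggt
Cox7a1 (chr7:30184051-30184170, plus strand): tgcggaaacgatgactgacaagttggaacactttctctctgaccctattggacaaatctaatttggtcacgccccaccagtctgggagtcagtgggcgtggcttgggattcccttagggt
Cox7a2 (chr9:79759854-79759973, minus strand): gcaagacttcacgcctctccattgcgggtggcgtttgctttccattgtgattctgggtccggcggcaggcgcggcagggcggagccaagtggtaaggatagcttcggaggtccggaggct
Atp5k (chr5:108434400-108434519, minus strand): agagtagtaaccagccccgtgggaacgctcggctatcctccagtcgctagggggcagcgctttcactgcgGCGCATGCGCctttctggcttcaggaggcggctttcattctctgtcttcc
Atp5g3 (chr2:73911327-73911446, minus strand): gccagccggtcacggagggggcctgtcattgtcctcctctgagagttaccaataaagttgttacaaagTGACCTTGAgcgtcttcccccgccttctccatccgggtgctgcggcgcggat

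Sdha and Ndufb4 both hold several NRF1 cores, and their differences between groups were -0.02 ± 0.08 and -0.23 ± 0.07. Cox6a1, with 1 core, had 1741, 1746, 1933 and 1799 FPKM in the Klebsiella libraries and 2416, 2116, 2437 and 1586 FPKM in the Lactobacillus libraries. Lactobacillus 4 was the lowest library and Lactobacillus 1 to 3 the highest. Its log2 difference was -0.23 ± 0.16 (limma adjusted p 0.781), and -0.36 ± 0.12 without Lactobacillus 4 (limma adjusted p 0.924).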

How the data were processed

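RNA of flash-frozen intestine from 8 mice was extracted with Trizol and sequenced from Illumina TruSeq libraries, per the labels' protocols. The authors deposited FPKM values per gene, scaled by them for gene length and depth, and read counts per library after their read filter. Per the submitters' processing notes, which assign no roles, the tools were DESeq2 1.10.1, HTSeq 0.6.0, CASAVA and STAR 2.5.1b. The genome build, annotation and use of strand in counting are not stated, so genes that share sequence or overlap are uncertain: 49 of the 83 genes share at least 1 word of 50 bases with another gene and 37 overlap one.

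Symbols and coordinates come from GENCODE M21 (GRCm38), which held 49326 of 49585 identifiers, and promoters from RefSeq (GRCm38.p6). Genes with a mean of at least 0.5 FPKM were tested on log2(FPKM + 0.5) with limma 3.58.1 (R 4.3.3, mean-variance trend), Klebsiella minus Lactobacillus, two-sided, with Benjamini-Hochberg adjustment over 16865 genes and a threshold of 0.05. A fold change on this scale understates that of low genes. Isoform ratios were compared by exact permutation (scipy 1.17.1). Whole reads were recovered from the FPKM steps for 26962 of 26963 genes and used for read numbers. The fit was tested on simulated data, in which genes varied independently and changes were larger than those of most subunit genes. That test therefore does not bear on differences as small as these.

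Genes were named if they had one of up to 12 smallest unadjusted p-values under 0.05, if their groups did not overlap, if they were highest, lowest, steadiest or most variable in their complex, or if they belonged to an isoform pair or the c subunit; the 2 genes of smallest p were named from each other list. Of the genes this rule names, 1 is not reported here. The genes and lists were chosen with earlier results of these data known. Alternatives covered the pseudocount, filter, scaling, weights, variance prior, replicate block and each library left out. Another counted Ndufa4 and Ndufa4l2 with complex IV and left out Atp5s.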

Additional observations from a re-analysis of the deposited data

Results flagged for a closer look

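In 10 of the 166 sets of 4 values (83 genes in 2 groups), 1 library stood far from the other 3 by Dixon's test at the 95% level, where chance gives about 5% of sets. Ndufa12 had 58.7 FPKM in Lactobacillus 4, with the other 3 at 165 to 195 FPKM. Atp5e had 362 FPKM in Lactobacillus 4, with the others at 455 to 468. Ndufa7 had 243 FPKM in Lactobacillus 1, with the others at 287 to 295, and Atp5l had 19.5 FPKM there, with the others at 25.3 to 26.0. Atp5mpl had 805 FPKM in Lactobacillus 2, with the others at 694 to 706. Ndufa11 had 29.9 FPKM in Lactobacillus 3, with the others at 32.2 to 32.3.

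In the Klebsiella group, Ndufs4 had 47.4 FPKM in Klebsiella 2, with the others at 53.1 to 53.5, and Atp5h had 501 FPKM there, with the others at 544 to 551. Cox8a had 1111 FPKM in Klebsiella 3, with the others at 913 to 939. Ndufb3 had 115 FPKM in Klebsiella 4, with the others at 108 to 109.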

How the results depend on the processing

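No subunit gene passed the adjusted threshold in any of 21 alternatives (smallest adjusted p 0.356 for a named gene). All 129 medians of the complexes and of all 83 genes stayed below 0, and the median of all genes of the chain ran from -0.17 to -0.09. No named gene whose difference exceeds its SE changed sign, but those near 0, such as Atp5b, can. The 7 genes at an unadjusted p under 0.05 became 25 with array weights (30.1%, against 10.8% of all genes). They became 4 to 23 with 1 library left out, where the share of all genes was 3.39% to 11.9%. Without Lactobacillus 1 the share of subunit genes, 8.43%, was below the 11.9% of all genes. The mouse number as a replicate block gave 4 (4.82% against 6.09%). Deviations of same-numbered libraries had correlations of 0.189, -0.10, -0.06 and -0.16, and 1 of 4 correlated best with its own number. The labels do not say whether the numbers pair the mice, and so few correlations cannot decide it. Added after seeing the data, voom on recovered reads gave 11 (13.3% against 6.13%), and leaving out Klebsiella 3 with Lactobacillus 2, or Klebsiella 2 with Lactobacillus 3, gave 3 each (3.61%, against 8.08% and 2.55%). The 11 genes with groups apart became 6 at a constant total, 5 with median-of-ratios factors, 7 at a constant nuclear coding total, 11 to 31 with 1 library left out, and 22 and 17 without those pairs (26.5% and 20.5%). Over all genes the share apart was 2.99% with all libraries, at most 11.3% with 1 left out, and 12.6% and 7.14% without the pairs. The median of complex IV was -0.22 with array weights and -0.21 to -0.14 with 1 library left out. With 1 library left out the other medians ran from -0.17 to -0.09 in complex I, -0.08 to -0.03 in complex II, -0.16 to -0.07 in complex III and -0.16 to -0.07 in ATP synthase. The causes were not tested.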
